A study of Mus musculus with 19 samples.

Results

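The miR-379 to miR-410 cluster is a run of miRNA hairpins in the imprinted Dlk1-Dio3 domain of mouse chromosome 12, and its mature miRNAs were followed here in the hippocampal CA1 subregion of young and aged mice. Members were chosen by name, as both arms of 37 precursor numbers that had been listed for the cluster. They came to 73 of the 1148 mature miRNA names counted in each library. Of these 73, 57 passed the low-count filter, among 509 miRNAs that passed it in all.

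The 19 small RNA libraries came from microdissected CA1, and the mice were C57B/6JRj (the strain label) and of WT genotype. The young vehicle group held 8 libraries from mice of 3 months, the aged vehicle group 5 libraries from mice of 20 months, and the aged SAHA group 6 libraries from mice of 20 months. All groups were given water that held 18 g per L of cyclodextrin, and the aged SAHA group also received 0.67 g per L of SAHA (vorinostat), an inhibitor of histone deacetylases, by mouth. Aged mice were treated for 4 weeks, and no time is stated for the young mice. The labels name animals but do not state that each library is a separate one, so p-values measure the spread between libraries, part of which may be technical. CA1 is bulk tissue, in which fewer cells of a type and less RNA per cell cannot be told apart.

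A miRNA is cut from a hairpin whose 2 strands, the 5p and the 3p arm, can each be loaded into an Argonaute protein. The loaded strand then pairs with messenger RNAs through its seed, bases 2 to 8. In the Dlk1-Dio3 domain the miRNAs and other noncoding RNAs are expressed from the maternally inherited chromosome, while the protein-coding genes are expressed from the paternal one. In neurons the transcription factor Mef2 drives the cluster after activity, and miR-134, its best studied member, limits the size of dendritic spines by repressing Limk1.

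The cluster occupied 34.7 kb of the plus strand at chr12:109709060-109743795 (GRCm38, RefSeq positions). All 37 precursors lay there, from Mir379 at chr12:109709060-109709125 to Mir410 at chr12:109743715-109743795. Against the GENCODE annotation, 24 precursors were intergenic, 8 overlapped exons of the long noncoding RNA Mirg and 5 lay in its introns. Neighbouring precursors were a median of 557 bases apart, with the widest gap, 4369 bases, between Mir544 and Mir382. Mir299b, on the opposite strand of Mir299a, was the only RefSeq miRNA gene of the span outside the named set. The sources used here do not say whether the authors' counting used strand, so the counts of miR-299 may include reads of that antisense hairpin.

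Mature sequences were taken from RefSeq (GRCm38.p6), which gave one for 69 of the 73 names. Those below are written 5′ to 3′ with the seed in capitals. The first 5 are the most abundant members, which together make up most of the cluster's reads.
miR-411-5p: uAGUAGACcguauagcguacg
miR-410-3p: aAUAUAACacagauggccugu
miR-541-5p: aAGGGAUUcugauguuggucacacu
miR-381-3p: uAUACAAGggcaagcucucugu
miR-300-3p: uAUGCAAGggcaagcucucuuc
The next 7 are the other members that were lower in aged SAHA in at least 1 comparison.
miR-379-3p: uAUGUAACaugguccacuaacu
miR-485-3p: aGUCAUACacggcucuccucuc
miR-409-5p: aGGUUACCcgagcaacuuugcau
miR-539-5p: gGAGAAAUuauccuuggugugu
miR-496-3p: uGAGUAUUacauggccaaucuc
miR-1193-3p: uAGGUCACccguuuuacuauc
miR-667-3p: uGACACCUgccacccagcccaag
The last 4 serve as comparisons, 2 as an opposite arm or seed partner of miR-379-3p and 2 as a pair of near-identical reads.
miR-379-5p: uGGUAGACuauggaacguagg
miR-411-3p: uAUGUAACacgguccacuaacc
miR-376b-5p: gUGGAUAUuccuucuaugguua
miR-376c-5p: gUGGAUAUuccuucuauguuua

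Members that share a seed can pair with the same messenger RNA sites. miR-379-3p and miR-411-3p share the seed AUGUAAC, and both passed the filter. No other pair among the members with a matched sequence had a common seed and passed it with both miRNAs. Their sequences differed at 2 bases. miR-376b-5p and miR-376c-5p share UGGAUAU and differed at 1 base, so the split of their 42823 and 94 counts is uncertain. miR-376 hairpins are also known substrates of A-to-I editing, which counts by name do not show. miR-300-3p and miR-381-3p have different seeds and differed at 3 bases. Among miRNAs outside the cluster that passed the filter, the seed of miR-410-3p also occurs in miR-344d-3p and that of miR-329-3p in miR-362-3p. The seed of miR-1193-3p occurs in miR-370-5p, that of miR-377-5p in miR-672-5p and that of miR-412-3p in miR-1983.

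The members' 5′ ends differed from those of other miRNAs. A first base of U was found in 42.0% and of A in 37.7% of the 69 member sequences, against 34.4% and 27.9% of 860 other sequences, and a first C in 5.8% against 23.6%. The median GC content was 45.5% in members and 50% in the others. GGUU within bases 1 to 6, a motif chosen after the sequences were read, was present in 11 members (15.9%) and in 12 other miRNAs (1.4%). Of these 11, 10 were 5p arms, and 4 passed the filter, namely miR-154-5p, miR-299-5p, miR-380-5p and miR-409-5p. Many hairpins of the cluster are paralogs, so these sequences are not independent observations.

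A few members supplied most of the cluster's reads. miR-411-5p had a mean of 12854 ± 1081 CPM (counts scaled to library size, SD over 19 libraries) and 27.3% of all cluster counts. miR-410-3p followed with 9570 ± 1102 CPM and 20.3%, and miR-541-5p with 8930 ± 1158 CPM and 18.998%. These 3 held 66.7% of the cluster's counts, the first 5 held 82.2% and the first 8 held 88.1%. Mature lengths were within 19 to 25 bases, and CPM were not corrected for length. Ligation and amplification can favour some sequences over others, so the order of members by CPM is an order of reads and may differ from that of molecules. The order of miR-410-3p and miR-541-5p changed from library to library and is not resolved. For example, they had 8626 and 6980 CPM in aged SAHA 1 but 7958 and 8912 CPM in aged SAHA 4.

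miR-381-3p (3806 ± 521 CPM) and miR-300-3p (3522 ± 384 CPM) came next, and their order differed between groups. By group mean miR-381-3p was the higher in young vehicle (4212 and 3556 CPM) and aged vehicle libraries (3568 and 3283 CPM). The same order was found within each of these libraries except aged vehicle 4. In aged SAHA libraries miR-381-3p was the lower by mean (3462 and 3674 CPM) and within each library except aged SAHA 4. This difference in order was not tested. miR-381 is one of the members linked to activity-dependent growth of dendrites. miR-409-3p (1190 ± 164 CPM), miR-668-3p (872 ± 85.9 CPM) and miR-369-5p (715 ± 75.8 CPM) completed the 8 highest. miR-134-5p had 71.9 ± 6.20 CPM. Past the filter, 6 members exceeded 1000 CPM, 21 lay between 100 and 1000 CPM, 18 between 10 and 100 CPM and 12 below 10 CPM, down to 1.91 CPM for miR-539-3p.

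**Figure D1:**
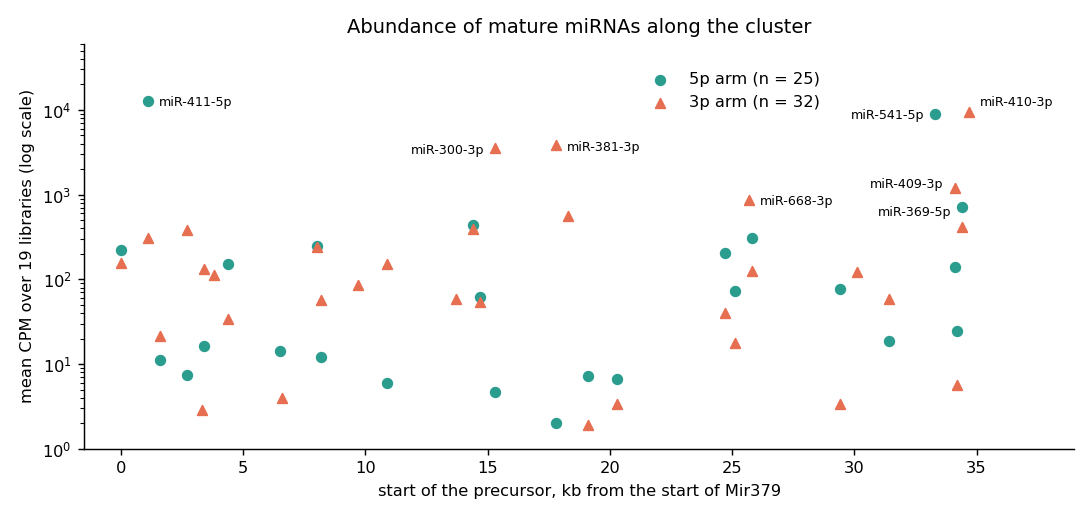
Mean CPM over the 19 libraries (log scale) of the 57 tested members against the start of each precursor in kb from the start of Mir379, with circles for 5p and triangles for 3p arms. miR-411-5p stands near one end of the cluster, miR-300-3p and miR-381-3p near its middle, and miR-541-5p and miR-410-3p at the other end.

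The remaining 16 names did not pass the filter. No count was found in any library for miR-453, miR-654-3p and miR-654-5p, where 3 counts of the 98090032 in total would allow up to 0.0306 CPM by counting error alone. The other 13 had at least 1 count and a mean of 0.0108 to 1.29 CPM, and 10 of them were 5p arms. Mir494 gave only 114 counts of its 3p arm and 30 of its 5p arm.

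The hairpins of the cluster did not all favour the same arm. Over the 35 member precursors with at least 100 counts in both arms together, the 3p arm held more than 50% of counts in 19 and the 5p arm in 16. The 3p arm held more than 90% in 12, the 5p arm more than 90% in 4, and neither did in 19. Of 257 other precursors, 75 had neither arm above 90%, with 89 at the 3p and 93 at the 5p extreme. At the extremes, 86 counts of miR-541-3p stood against 879453 of miR-541-5p, and 113 counts of miR-410-5p against 941248 of miR-410-3p. In miR-411 the 3p arm held 2.34% of counts (30268 against 1265791). The arms were near balance in miR-666 (49.4% 3p), miR-376b (47.0%), miR-376a (46.1%) and miR-379 (41.5%).

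The cluster's share of all miRNA counts overlapped between the 3 groups. In young vehicle libraries it ran from 4.34% through a median of 4.82% to 5.24% (mean 4.76% ± 0.315, SD, n = 8). The aged vehicle libraries had 4.76%, 4.00%, 4.71%, 4.89% and 4.83% (4.64% ± 0.363, SD, n = 5), and the aged SAHA libraries ran from 3.76% to 5.24% (4.70% ± 0.49, SD, n = 6). The group means lay closer together than 1 SD. The other miRNAs of the domain, a list of 39 names led by miR-127-3p, held 18.7% of counts in young vehicle, 18.6% in aged vehicle and 16.2% in aged SAHA libraries. For that list aged SAHA libraries had 14.8% to 17.5%, aged vehicle libraries 15.4% to 19.9% and young vehicle libraries 16.9% to 20.5%, with overlap between all groups.

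2 libraries stood apart in the share. Aged SAHA 1 (3.76%) had 50 of the 57 tested members below their mean over all libraries, and aged vehicle 2 (4.00%) had 47. Both also had high summed CPM of the endothelial and mural list (miR-126, miR-143, miR-145), 60183 in aged SAHA 1 and 53174 in aged vehicle 2, as did young vehicle 4 (65584) and aged SAHA 3 (61227), against 25986 to 39009 in the other 15. Aged SAHA 1 had the highest sum of the oligodendrocyte list (8101 CPM, others at most 5627) and of the microglia and myeloid list (767 CPM, others at most 529). The part of these lists in the results on the members was not tested. Total miRNA counts ranged from 3585489 to 6808281 per library.

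**Figure D2:**
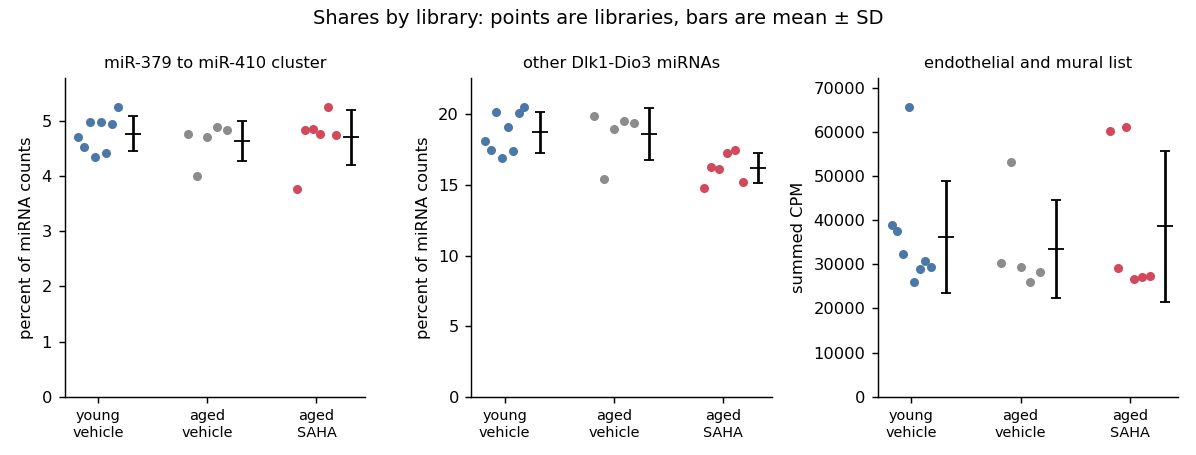
Percent of each library's miRNA counts held by the cluster (left) and by the other miRNAs of the Dlk1-Dio3 domain (middle), and the summed CPM of the endothelial and mural list (right), with points for libraries and bars for group mean ± SD. The cluster share overlaps between groups with aged vehicle 2 (4.00%) and aged SAHA 1 (3.76%) lowest. For the other domain miRNAs the aged SAHA libraries (14.8% to 17.5%) overlap young vehicle (16.9% to 20.5%). Among aged vehicle libraries (15.4% to 19.9%) they overlap only the lowest, aged vehicle 2.

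Within groups the members varied together from library to library. Over the 35 members at 50 CPM or more, the deviations of log2 CPM from the group means had a median pairwise correlation of 0.367 (595 pairs, 19 libraries), against 0.00655 over all 251 miRNAs of that level. The other domain miRNAs had a median of 0.446 (120 pairs). The 2 arms of 1 hairpin did not stand out, with a median of 0.245 over 8 member precursors. Without aged SAHA 1, young vehicle 6 and aged vehicle 2 the members' median was 0.287. These values are descriptions, since all pairs share the same libraries and their depth and cell makeup. The coefficient of variation over all libraries was 8.41% to 23.8% in these members, with a median of 12.3% against 12.05% over all 251. miR-409-5p, miR-377-3p, miR-379-3p, miR-376a-3p and miR-485-3p varied most.

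Age was read from aged vehicle against young vehicle libraries. No member was called different between 3 and 20 months. edgeR's quasi-likelihood test with Benjamini-Hochberg adjustment over 509 miRNAs called 0 of 57 members, where it called 2.16% of all tested miRNAs (1.96% lower and 0.196% higher), and DESeq2 and limma-voom also called 0. At an unadjusted p under 0.05 there were 3 members of 57 (miR-381-3p, miR-329-3p and miR-539-3p), beside 15.7% of all miRNAs. Member changes ran from -0.59 to 0.36 on the log2 scale with a median of -0.0093, beside -0.0030 over all tested miRNAs. In none of the 57 were all aged vehicle libraries on one side of all young ones, against 2.16% of all miRNAs lower and 0.982% higher in that sense.

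The smallest age p-value among members was that of miR-381-3p. Its CPM in young vehicle libraries ran from 3657 through a median of 4062 to 5121, and the aged vehicle libraries had 3661, 3300, 3765, 3434 and 3678. Only 2 of the 5 aged libraries lay below every young one. The log2 difference was -0.24 ± 0.08 (SE), with an edgeR adjusted p of 0.123. miR-329-3p, another member linked to activity-dependent dendrite growth, differed by -0.23 ± 0.09 (edgeR adjusted p = 0.205), with 26.8 to 35.9 CPM over aged vehicle libraries and 29.6 to 41.4 CPM over the young. For miR-539-3p, with 3 to 18 counts per library, the difference was -0.59 ± 0.25 (edgeR adjusted p = 0.244). miR-154-5p (-0.18 ± 0.09), miR-1193-3p (0.36 ± 0.19) and miR-379-3p (0.18 ± 0.10) had edgeR adjusted p-values of 0.321, 0.356 and 0.357.

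SAHA was read from aged SAHA against aged vehicle libraries. Of the 57 members 6 fell and 0 rose by edgeR's quasi-likelihood test with Benjamini-Hochberg adjustment, which is 10.5% of members where 4.32% of all 509 miRNAs were called (3.14% lower and 1.18% higher). The 6 were miR-379-3p, miR-485-3p, miR-409-5p, miR-1193-3p, miR-539-5p and miR-496-3p, and none was among the 8 most abundant members, whose changes ran from -0.19 to 0.18. The median over members was 0.02 and over all miRNAs -0.01, with 26 members below 0 and 31 above. At an unadjusted p under 0.05 there were 10 members beside 19.4% of all miRNAs. DESeq2 called 7 members lower, and limma-voom 8 lower and 1 higher.

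Beside these changes the summed level of the neuron list (both arms of miR-124, miR-128, miR-129, miR-137, miR-138, miR-153, miR-218 and miR-9) was 87497 to 93099 CPM over aged vehicle libraries and 74647 to 80860 CPM over aged SAHA, without overlap, and 86546 to 97001 CPM in young vehicle libraries. All its markers were detected in every library. By means over all libraries, miR-9-5p (38679 CPM) and miR-128-3p (31830 CPM) supplied most of the sum (87088 CPM). The difference may therefore not hold for the other markers, whose single changes are not given here. The part of the neuron list in the changes of the members was not tested.

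miR-379-3p comes from the first hairpin of the cluster, which is intergenic. The aged vehicle libraries had 215.7, 160.2, 210.7, 165.3 and 166.1 CPM, and the 6 aged SAHA libraries 131.1, 113.5, 109.7, 134.5, 145.3 and 126.8 CPM. Every aged SAHA library lay below every aged vehicle library. The log2 fold change was -0.53 ± 0.11 (SE), a level 30.9% lower, with an edgeR adjusted p of 0.0042. Young vehicle libraries, at 119.9 to 181.8 CPM with a median of 164.0, overlapped both groups.

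miR-485-3p comes from Mir485 at chr12:109734902-109734974, in an exon of Mirg. Its aged vehicle libraries had 139.0, 117.8, 145.8, 165.1 and 147.7 CPM, and its aged SAHA libraries ran from 91.7 through a median of 96.7 to 113 CPM. Here too the groups did not overlap. The level fell by 0.50 ± 0.10 on the log2 scale (29.4% lower, edgeR adjusted p = 0.00439). These changes of miR-379-3p and miR-485-3p remained called in each of the 10 other settings and with each library left out, where the highest edgeR adjusted p-values were 0.0238 and 0.0204.

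miR-409-5p, the minor arm of Mir409 at chr12:109743158-109743236 in an intron of Mirg, had 188.5, 149.0, 123.2, 203.7 and 132.7 CPM in aged vehicle libraries. Aged SAHA libraries ran from 91.4 through a median of 105 to 133 CPM, so that 5 of 6 lay below every aged vehicle library. The log2 fold change was -0.55 ± 0.14 (edgeR adjusted p = 0.0211). It no longer passed on leaving out any of aged vehicle 1 and 4 and aged SAHA 3 and 6, with edgeR adjusted p-values up to 0.0852.

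miR-539-5p, from the intergenic Mir539 at chr12:109728129-109728202, was among the low members, with 20 to 61 counts per library. It had 9.19, 7.39, 12.7, 7.29 and 7.71 CPM in aged vehicle libraries and 4.73 to 6.14 CPM, median 5.401, in aged SAHA libraries. The groups did not overlap, and the log2 fold change was -0.70 ± 0.17 (edgeR adjusted p = 0.0164). Without aged vehicle 3, its highest library, the edgeR adjusted p was 0.0531.

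miR-496-3p, in an intron of Mirg at chr12:109739119-109739197, had 135.9, 133.8, 137.3, 138.1 and 130.4 CPM in aged vehicle libraries. The aged SAHA libraries ran from 92.9 through a median of 99.6 to 128.1 CPM, which put all 6 below the aged vehicle range. Its log2 fold change of -0.35 ± 0.10 (edgeR adjusted p = 0.0368) was the smallest of the 6. The call was lost without any 1 of 9 libraries, namely aged vehicle 1 to 5 and aged SAHA 1, 3, 4 and 6, with edgeR adjusted p-values up to 0.0793. It was also lost with no low-count filter (0.0506), on fitting only the aged groups (0.0734), with the 3 most abundant miRNAs left out (0.0534) and without aged SAHA 1 and young vehicle 6 together (0.0537), all edgeR adjusted p-values.

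miR-1193-3p, from the intergenic Mir1193 at chr12:109715671-109715791, had the fewest reads of the 6, with 7 to 31 counts per library. Its aged vehicle libraries had 6.06, 4.79, 4.56, 6.22 and 4.32 CPM, and its aged SAHA libraries 2.29 to 4.02 CPM with a median of 3.03, all below the aged vehicle range. Young vehicle libraries, at 2.07 to 5.09 CPM with a median of 4.16, overlapped both groups. The log2 fold change of aged SAHA against aged vehicle was -0.76 ± 0.21 (edgeR adjusted p = 0.0368). Leaving out any of aged vehicle 1, 2, 3 and 4 or of aged SAHA 2, 3 and 6 ended the call, with edgeR adjusted p-values up to 0.143. So did no low-count filter (0.0657), the aged groups alone (0.0586) and leaving out the 3 most abundant miRNAs (0.0504), all edgeR adjusted p-values, and under each of these 3 settings 4 members were called for SAHA in place of 6.

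**Figure D3:**
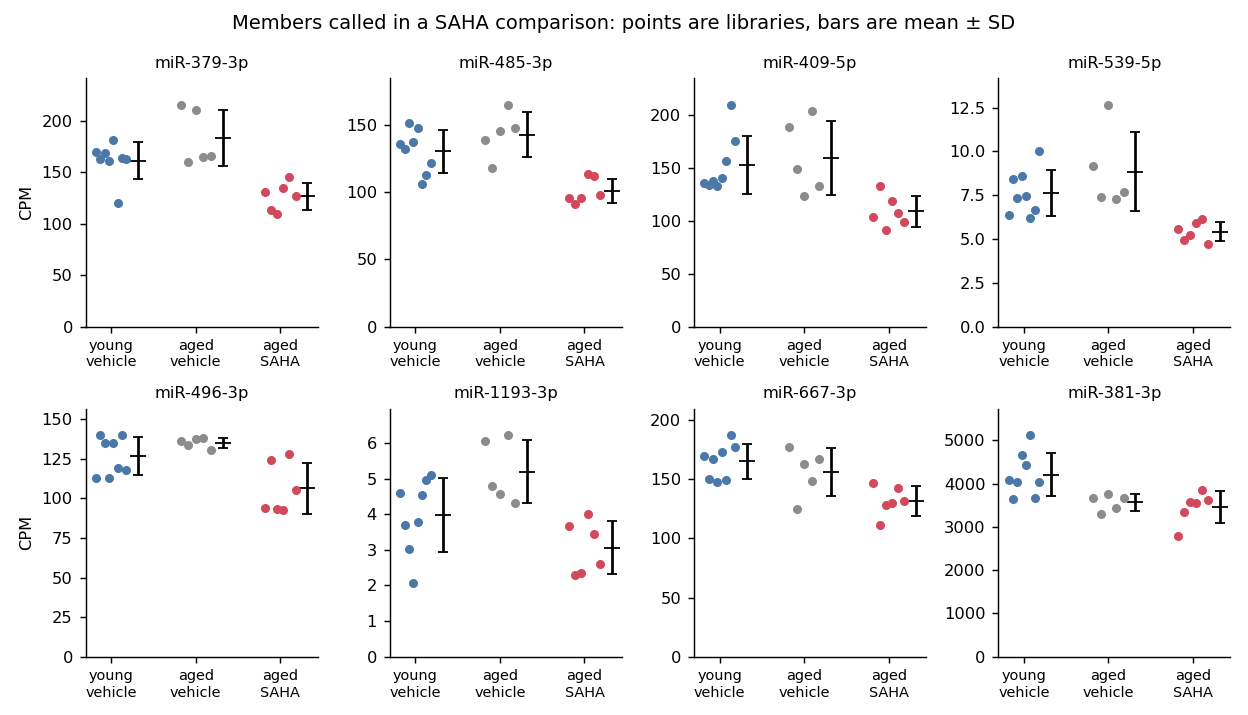
CPM per library of the 8 members called lower in aged SAHA against aged vehicle, young vehicle or both, with points for libraries and bars for group mean ± SD, on axes that start at 0. For miR-379-3p, miR-485-3p, miR-496-3p, miR-539-5p and miR-1193-3p all 6 aged SAHA points lie below the aged vehicle points, and for miR-381-3p the aged groups overlap.

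Separation of the groups, read apart from the model, was found for 5 of 57 members, all lower in aged SAHA, where 3.34% of all miRNAs were separated in that direction and 1.57% in the other. The members that fell lay in both stretches of the cluster. In exons and introns of Mirg 3 of 20 tested members fell (miR-485-3p, miR-496-3p and miR-409-5p), and 3 of the 37 intergenic ones did. The count of 6 members became 3 on leaving out any of aged vehicle 1, 3 and 4 or of aged SAHA 3 and 6. Without aged SAHA 1 it was again 6, of which 5 fell and 1, miR-369-5p, rose. The next member by p, miR-377-3p, lies in an exon of Mirg and differed by -0.44 ± 0.14 (edgeR adjusted p = 0.0689).

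**Figure D4:**
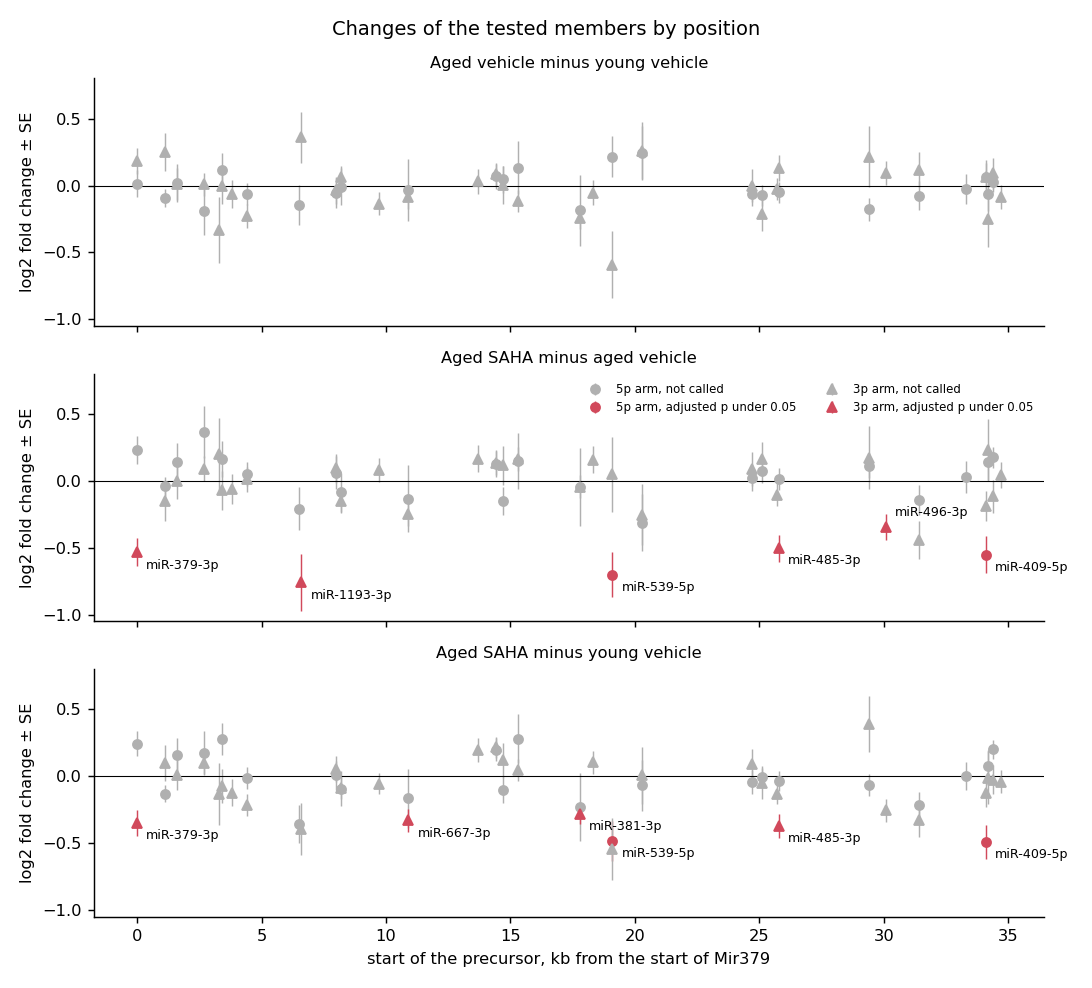
Log2 fold change ± SE of the 57 tested members against the start of each precursor in kb from the start of Mir379, for age (top), aged SAHA against aged vehicle (middle) and aged SAHA against young vehicle (bottom). Members with an edgeR adjusted p under 0.05 are coloured and named: 0 for age, 6 lower in each SAHA comparison, spread along the cluster and mixed with neighbours near 0.

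None of the opposite arms past the filter was called in this comparison. miR-379-5p had 191, 196, 197, 240 and 226 CPM in aged vehicle libraries and 190 to 304 CPM, median 247, in aged SAHA libraries. Its difference was 0.23 ± 0.11 (edgeR adjusted p = 0.224). For miR-485-5p, an arm known to repress the synaptic vesicle protein SV2A, the aged vehicle values of 275 to 336 CPM and aged SAHA values of 247 to 343 CPM overlapped, with a difference of 0.01 ± 0.08 (edgeR adjusted p = 0.924). miR-409-3p differed by -0.19 ± 0.11 (edgeR adjusted p = 0.388). miR-411-3p, the seed partner of miR-379-3p, had 292 to 400.5 CPM over aged vehicle libraries and 264 to 367 CPM over aged SAHA, a difference of -0.15 ± 0.15 (edgeR adjusted p = 0.644).

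The balance of the arms was tested as the log2 ratio of 3p to 5p counts, which does not depend on library scaling, with limma over the 152 precursors whose arms both passed the filter. Members accounted for 23 of them. For SAHA 2 of 23 moved, both toward the 5p arm, beside 13.8% of all 152 precursors (13.2% toward 5p and 0.658% toward 3p). The members' share was thus not above that of all precursors. At an unadjusted p under 0.05 there were 5 members, beside 28.9% of all precursors. miR-379 had ratios of 0.18, -0.29, 0.10, -0.54 and -0.44 in aged vehicle libraries and from -1.42 through a median of -0.88 to -0.54 in aged SAHA libraries, and aged SAHA 1 and aged vehicle 4 met at -0.54. The change was -0.75 ± 0.16 (limma adjusted p = 0.00185). miR-485 had ratios of -1.18, -1.35, -0.92, -1.02 and -0.99 in aged vehicle libraries and -1.78 to -1.37, median -1.62, in aged SAHA libraries, with no overlap. Its change was -0.51 ± 0.12 (limma adjusted p = 0.00648). Both calls held with each library left out, where the highest limma adjusted p-values were 0.0112 for miR-379 and 0.0278 for miR-485. The median change over the 23 member precursors was -0.02, against -0.06 over all 152.

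**Figure D5:**
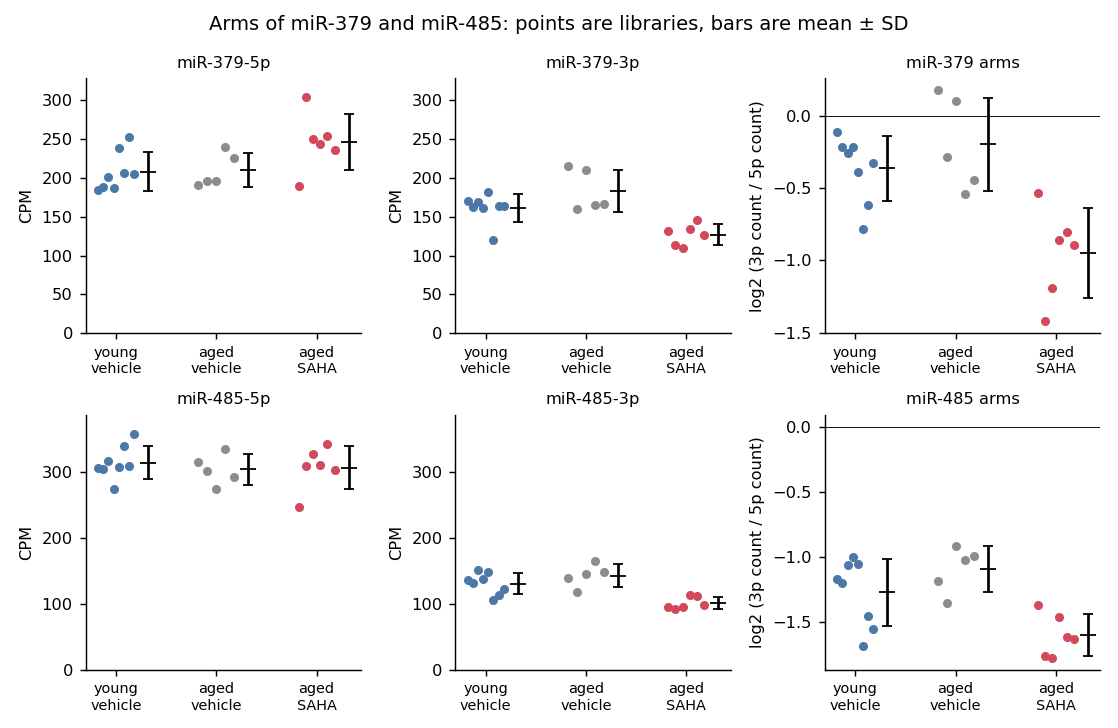
CPM of the 5p arm (left) and the 3p arm (middle) and the log2 ratio of 3p to 5p counts (right) of miR-379 and miR-485, with points for libraries and bars for group mean ± SD. The 3p arms lie lower in aged SAHA libraries while the 5p arms overlap between groups, and the ratio of miR-485 in aged SAHA, at most -1.37, does not overlap that in aged vehicle, at least -1.35.

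For age limma called 0 of the 23 member precursors and 0.0% of the 152. At an unadjusted p under 0.05 there were 2 members, beside 11.2% of all precursors. The smallest p-values belonged to miR-539 (-0.78 ± 0.23), miR-411 (0.37 ± 0.14) and miR-154 (0.44 ± 0.22), with limma adjusted p-values of 0.265, 0.384 and 0.424. miR-539 and miR-154 have a minor arm of few reads, so their ratios rest on small counts.

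Aged SAHA was also compared with young vehicle, which asks where treated aged mice stood relative to young ones. It shares libraries with both other comparisons and is not independent of them. edgeR's quasi-likelihood test with Benjamini-Hochberg adjustment called 6 of 57 members lower and 0 higher, 10.5% of members where it called 13.9% of all miRNAs (8.64% lower and 5.3% higher), so the members' share was near the background. At an unadjusted p under 0.05 there were 19 members beside 32.8% of all miRNAs. miR-485-3p (-0.37 ± 0.09, edgeR adjusted p = 0.00783), miR-409-5p (-0.49 ± 0.13, 0.0107), miR-379-3p (-0.35 ± 0.10, 0.0163) and miR-539-5p (-0.48 ± 0.15, 0.0361) were called here as well as against aged vehicle. The call for miR-539-5p ended without any 1 of 7 libraries, with edgeR adjusted p-values up to 0.0758. With size factors of DESeq2 in place of TMM the split was 6 lower and 2 higher, and with library size alone 5 lower and 1 higher.

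miR-667-3p and miR-381-3p were called only against young vehicle among the edgeR tests, and whether the 2 SAHA comparisons differ for them was not tested. miR-667-3p, from the intergenic Mir667 at chr12:109720006-109720097, ran from 148 through a median of 168 to 187 CPM in young vehicle and from 111 through 131 to 147 CPM in aged SAHA libraries. These groups did not overlap, and the log2 fold change was -0.33 ± 0.09 (edgeR adjusted p = 0.0107). Aged vehicle libraries had 177, 125, 163, 148 and 167 CPM and overlapped both. miR-667-3p and miR-539-5p were the 2 members whose groups were separated in this comparison, beside 2.55% of all miRNAs lower in that sense.

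miR-381-3p, from the intergenic Mir381 at chr12:109726822-109726896, ran from 2803 through a median of 3566 to 3860 CPM in aged SAHA libraries, and 5 of 6 lay below every young vehicle library. The log2 fold change was -0.28 ± 0.08 (edgeR adjusted p = 0.0163), beside -0.24 ± 0.08 for aged vehicle against young and -0.04 ± 0.09 for aged SAHA against aged vehicle (edgeR adjusted p = 0.817). Fitted on the young vehicle and aged SAHA libraries alone, its edgeR adjusted p was 0.0521. miR-300-3p, which differs from it at 3 bases, had 3093 to 4308 CPM in young vehicle and 3060 to 4063 CPM in aged SAHA libraries, a difference of 0.05 ± 0.08 (edgeR adjusted p = 0.719).

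Whether members also rose in this comparison depended on the libraries and on the scaling. Without aged SAHA 1 the count was 10, of which the same 6 were lower and 4 were higher. The 4 were miR-369-5p (0.26 ± 0.06, edgeR adjusted p = 0.00675), miR-379-5p (0.31 ± 0.09, 0.0192), miR-376b-3p (0.26 ± 0.08, 0.02) and miR-376b-5p (0.25 ± 0.08, 0.0438), named after their values were seen. With all libraries miR-369-5p had 623 to 749 CPM in young vehicle libraries, 619 to 779 CPM over aged vehicle and 621 to 844 CPM over aged SAHA, and the lowest aged SAHA value was that of aged SAHA 1. Its difference from young vehicle was 0.20 ± 0.07 (edgeR adjusted p = 0.0621). It passed in 9 of 10 other settings with all libraries or with aged SAHA 1 and young vehicle 6 left out together, and in 5 of the 19 fits that left out a single library. DESeq2 called 7 members lower and 3 higher with every library kept, the 3 being miR-369-5p, miR-379-5p and miR-376b-3p.

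For arm balance against young vehicle, limma called 2 of 23 member precursors toward the 5p arm, beside 10.5% of all 152 (9.87% toward 5p and 0.658% toward 3p). Here too the members' share was not above that of all precursors. At an unadjusted p under 0.05 there were 6 members, beside 28.9% of all precursors. miR-379 ran from -0.78 through a median of -0.29 to -0.11 in young vehicle libraries, with 5 of 6 aged SAHA libraries below all of them, and changed by -0.59 ± 0.14 (limma adjusted p = 0.00702). miR-323 ran from 2.80 through 3.15 to 3.45 in young vehicle and from 2.43 through 2.87 to 2.96 in aged SAHA libraries, a change of -0.37 ± 0.12 (limma adjusted p = 0.0455). The call for miR-323 was lost without any 1 of 13 libraries, with limma adjusted p-values up to 0.0894. miR-485 differed by -0.33 ± 0.11 (limma adjusted p = 0.0531) and passed in 3 of 5 other settings and in 4 of the 19 fits that left out a single library.

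Of the other miRNAs of the Dlk1-Dio3 domain, 26 of 39 names passed the filter. For age edgeR called 0 of the 26, beside 2.16% of all miRNAs. For aged SAHA against aged vehicle 2 fell, miR-127-3p and miR-673-5p (7.69%, beside 4.32% of all miRNAs), and the median of the 26 was -0.02, the cluster's being 0.02. Against young vehicle miR-127-3p, miR-673-3p and miR-673-5p fell (11.5%, beside 13.9% of all miRNAs), and the median was -0.06 beside -0.04 for the cluster.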

How the data were processed

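Each library's file held counts, whole numbers by mature miRNA name, as the authors deposited them and without normalisation. Per the submitters' processing notes, CASAVA 1.8.2, cutadapt, HTSeq and STAR were used with build mm10. The sources used here give neither settings nor a miRNA annotation release. Libraries followed Illumina TruSeq protocols, per the labels, and reads carry no molecular identifiers, so reads of 1 molecule can be counted more than once and counting limits cover counting error only.

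All 19 libraries were grouped by title and fitted together. The members and lists were chosen with earlier results of these data known. The 509 miRNAs that passed filterByExpr (minimum count 10, total 15) were TMM-scaled and tested by robust quasi-likelihood F tests in edgeR 4.0.16 (R 4.3.3), 1 term per group, at a common biological coefficient of variation of 0.152. Calls needed an adjusted p under 0.05 (Benjamini-Hochberg over all miRNAs of a comparison). Standard errors are the log2 fold change over the square root of F. Arm ratios, log2 of (3p + 0.5)/(5p + 0.5), were tested with limma 3.58.1 over 152 precursors. CPM use TMM-scaled library sizes. Scripts were tested on simulated data.

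Named members were all called ones, the next by p up to 6 per comparison, the 8 most abundant, called arm ratios or else the 3 smallest p, and seed partners. Any others named in the text were chosen after their values were seen. Positions and sequences came from RefSeq (GRCm38.p6) and hosts from GENCODE M21. The deposited miR-299 and miR-496 matched miR-299a and miR-496a by synonym. The alternatives changed the scaling (DESeq2 size factors, or library size), the filter (none, or 5 libraries at CPM of 10), the tool (limma-voom using quality weights, or DESeq2 1.42.0) or the libraries (each left out, or the third group left out), dropped the 3 most abundant miRNAs, took the replicate number as a block and, for arms, raised the pseudocount to 5. Omitting both aged SAHA 1 and young vehicle 6 was chosen after seeing the data. Sex and batch are not in the labels used here.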

Additional observations from a re-analysis of the deposited data

Results flagged for a closer look

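A library was marked where its gap to the nearest other library of its group was a larger part of the group's range than Dixon's 95% limit allows. This happened in 7 of 75 groups of values (9.33%), where chance marks about 1 in 20. The cluster share was marked low in aged vehicle 2, at 4.00% of miRNA counts against 4.71% to 4.89% in the other 4, and in aged SAHA 1, at 3.76% against 4.74% to 5.24% in the other 5. miR-369-5p was marked low in aged SAHA 1 as well, at 620.7 CPM against 769.6 to 843.6 CPM. Young vehicle 6 was marked low for miR-379-3p, at 119.9 CPM against 160.9 to 181.8 CPM, and for miR-541-5p, at 5829 CPM against 8671 to 9868 CPM. Young vehicle 5 was marked high for miR-411-5p, at 15766 CPM against 12039 to 13778 CPM. For the arms of miR-323, aged vehicle 1 was marked high with a log2 ratio of 3p to 5p of 3.29 against 2.91 to 3.02.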

How the results depend on the processing

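Over all settings, 26 fold changes and 8 arm ratios of named members gave 850 values on the same side of the threshold, 58 that lost a call, 25 that gained one and 6 of opposite sign, none of the 6 called. Those 6 belonged to the SAHA changes of miR-485-5p, at -0.00286 with the replicate block and -0.0337 to 0.0688 with single libraries left out, and of miR-381-3p, at 0.00928 without aged SAHA 1 and young vehicle 6 and -0.0739 to 0.00973 with single libraries left out. The replicate number as a block left 3 members called for SAHA (miR-379-3p, miR-485-3p and miR-409-5p) in place of 6. With the block the log2 fold change of miR-539-5p was -0.652 beside -0.700 without it. That of miR-496-3p was -0.353 beside -0.347, and that of miR-1193-3p -0.774 beside -0.758. Deviations of libraries with equal numbers had correlations from -0.317 to 0.314, which cannot settle whether equal numbers pair the libraries. The reason for the lost calls was not tested. Against young vehicle, DESeq2 called 10 members in place of 6. For arm ratios, leaving out aged SAHA 1 and young vehicle 6, an alternative added after the data were seen, gave 4 member precursors for SAHA (3 toward 5p, and miR-409 toward 3p) and 5 against young vehicle (4 toward 5p), in place of 2 each, and fitting only the 2 groups compared gave 1 against young vehicle. With the 3 most abundant miRNAs out of the total, the cluster share was 7.41% in young vehicle, 7.08% in aged vehicle and 7.18% in aged SAHA libraries.

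With each library left out in turn, the members called numbered 0 to 0 for age, 3 to 6 for SAHA and 5 to 10 against young vehicle. Arm ratio calls numbered 0 to 0, 2 to 3 and 1 to 4, the 1 being miR-379. Shares ran from 4.70% to 4.82% in young vehicle, 4.57% to 4.80% in aged vehicle and 4.59% to 4.88% in aged SAHA libraries. DESeq2 size factors and library size alone moved the median of all miRNAs by at most 0.042 on the log2 scale. The 12 tested members below 10 CPM rest on few counts per library, 3 to 18 for miR-539-3p, which limits the changes that could be detected in them.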
